A study of Mus musculus with 29 samples.

Results

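The genes described here were silent in podocytes before toxin and switched on within a day of it. They are 184 of the 20145 named genes on the array: none of the 8 day 0 arrays had the gene well above background, and all 4 TdTomato arrays of day 1 did. "Well above background" is the scanner software's own mark for a spot, and a gene with that mark is called detected below. Each gene was read from its brightest probe. Of the 5100 named genes undetected on every day 0 array, 199 met the rule (3.9%), and 15 of these were left out by symbol as chemokine, keratin, collagen, potassium channel and similar genes. Because the day 0 arrays and the day 1 TdTomato arrays chose the genes, their values are given as a description with no test. Tests compared only groups of the other arrays, but the fit behind them took its estimate of the spread from all arrays, those of the rule included.

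The 29 one-colour arrays held RNA of sorted podocytes from 16 male Pod-hCD25T/G mice on the C57BL/6J background, aged 8 weeks, at 1, 4 or 7 days after LMB2 or before it. LMB2 is an immunotoxin that carries a Pseudomonas exotoxin to cells bearing human CD25 and stops their protein synthesis. The labels do not say what the colours mean. By general knowledge of this mosaic mouse, the toxin's target, human CD25, is on podocytes that fluoresce with TdTomato, and their EGFP neighbours are without it. Treated mice underwent heminephrectomy and then received 25 ng LMB2 per gram of body weight. The labels do not state whether the day 0 mice had the surgery. At days 0, 1, 4 and 7 there were 4, 4, 4 and 2 TdTomato arrays and 4, 3, 4 and 4 EGFP arrays, and 13 mice gave both. The promoter that drives human CD25 is not named in the labels.

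Podocytes are terminally differentiated epithelial cells whose foot processes form the filtration slits of the glomerulus. Most genes of other tissues are kept off in them, and many such genes have promoters poor in CpG dinucleotides, whereas housekeeping genes usually have CpG-rich ones. In bulk RNA, fewer cells of a type and less RNA per cell cannot be told apart.

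Between 48.2% and 65.5% of spots were well above background on each array, and no spot was saturated. All 12 podocyte markers checked were detected on every array, and the log2 of their summed signal was 10.56 to 11.01 on the day 1 TdTomato arrays, against 11.18 to 11.91 on the day 0 TdTomato arrays. The number of arrays limits the precision. Values, called levels, are log2 signals after the array's own 75th percentile was subtracted, with SD across arrays. The labels give separate mice, and mice are named by their label (MC125 and so on). The series matrix columns of mouse MC221, 1 of the 2 day 7 TdTomato mice, correlated best with another array (r = 0.9932 against 0.9865 with its own EGFP array, and 0.9950 against 0.9945 for TdTomato), so day 7 results are also given without both of its arrays.

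The promoters of 147 of the 184 genes were found in the RefSeq table (build GRCm38.p6), as windows of 300 bases that run from before the gene's start to just past it. They span the range from CpG-poor to CpG-rich. The median was 9 CpG dinucleotides, against 4 in the 4012 matched promoters of all genes undetected at day 0 and 15 in the 15983 matched promoters of all genes on the array. GC content had medians of 56.3%, 48.7% and 57.3% in the same order. The 4 promoters below belong to genes whose levels are described further on, and they are shown because they differ widely in CpG content, within a range of 0 to 46 over the 147. Capitals mark each CpG.
Elf5 (GRCm38.p6 chr2:103411848-103412147, plus strand, 3 CpG): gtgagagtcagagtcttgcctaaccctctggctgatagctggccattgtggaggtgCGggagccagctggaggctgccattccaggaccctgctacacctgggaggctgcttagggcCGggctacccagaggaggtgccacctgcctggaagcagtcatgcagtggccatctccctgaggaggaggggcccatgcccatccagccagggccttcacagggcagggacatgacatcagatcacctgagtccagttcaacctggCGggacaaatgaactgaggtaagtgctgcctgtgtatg
Prl2a1 (GRCm38.p6 chr13:27801405-27801704, plus strand, 1 CpG): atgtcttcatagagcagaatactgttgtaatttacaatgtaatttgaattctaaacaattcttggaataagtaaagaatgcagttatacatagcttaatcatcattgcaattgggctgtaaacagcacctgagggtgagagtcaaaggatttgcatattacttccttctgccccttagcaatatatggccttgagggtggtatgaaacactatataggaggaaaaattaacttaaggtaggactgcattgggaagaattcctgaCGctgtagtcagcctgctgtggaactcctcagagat
Tent5b (GRCm38.p6 chr4:133479883-133480182, plus strand, 16 CpG): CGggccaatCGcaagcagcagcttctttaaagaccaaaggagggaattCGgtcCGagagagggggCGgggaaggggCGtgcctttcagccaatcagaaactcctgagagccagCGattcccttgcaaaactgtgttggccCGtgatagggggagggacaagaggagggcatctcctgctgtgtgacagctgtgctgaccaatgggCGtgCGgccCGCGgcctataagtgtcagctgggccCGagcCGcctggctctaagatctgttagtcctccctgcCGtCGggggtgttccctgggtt
Loxl4 (GRCm38.p6 chr19:42612757-42613056, minus strand, 32 CpG): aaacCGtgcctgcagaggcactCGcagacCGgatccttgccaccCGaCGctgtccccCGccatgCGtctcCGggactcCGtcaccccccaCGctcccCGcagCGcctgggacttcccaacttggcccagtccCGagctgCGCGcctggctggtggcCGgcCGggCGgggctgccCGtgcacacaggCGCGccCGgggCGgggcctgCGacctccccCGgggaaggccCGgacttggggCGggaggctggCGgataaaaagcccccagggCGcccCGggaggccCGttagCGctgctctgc
Prl2a1 and Elf5 hold almost no CpG, Tent5b lies near the median of all genes, and Loxl4 is CpG-rich. Among genes with a matched promoter, the 59 detected on all 4 day 4 TdTomato arrays and at least 1 log2 unit above day 1 had a median of 7 CpG (0 to 35), and so did the 35 within 1 unit (1 to 38). The 10 at least 1 unit lower had 16.5 (3 to 33), and the 23 detected on some day 4 arrays and the 20 on none each had 11. The ranges of the 5 groups overlapped, and no test was made.

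**Figure D1:**
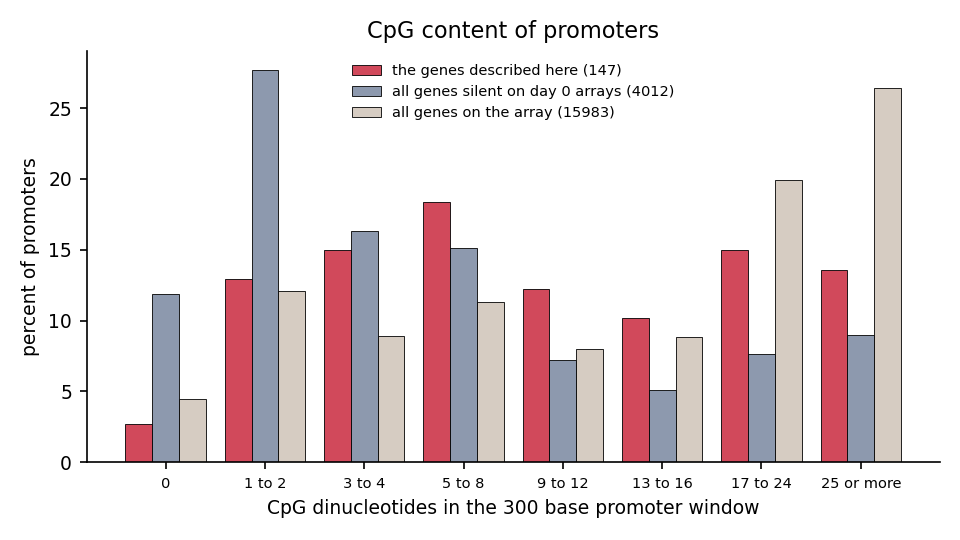
Percent of promoters (vertical axis) by the number of CpG dinucleotides in the 300 base window (horizontal axis), for the genes described here (red, 147), all genes undetected at day 0 (grey blue, 4012) and all genes on the array (beige, 15983). No CpG was found in 2.72% of the red promoters and 11.9% of the grey blue ones, and 25 or more in 13.6% and 8.97%.

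Short motifs were searched on both strands of the same windows. The cyclic AMP response element TGACGTCA was in 6 of the 147 promoters (4.08%), against 1.05% of promoters of genes undetected at day 0 and 2.48% of all promoters. These 6 were Cartpt, H2-Aa, Has1, Hdx, Nkpd1 and Spag4. The shorter TGACG, which the full element contains, was in 27.2%, 13.9% and 25.2%. The AP-1 letters TGANTCA were in 7.48%, 11.8% and 7.04%, the SP1 letters GGGCGG in 43.5%, 23.8% and 49.6%, and the TATA letters TATAAA in 12.2%, 22.5% and 12.7%. The letters TGATGNAA of ATF4 were in 1.36%, 5.16% and 3.29%, the E-box CACGTG in 6.80%, 5.41% and 8.41%, and CCAAT in 38.1%, 39.3% and 38.8%. The NF-kB motif was in 26.5%, 17.3% and 23.3%, the EGR letters GCGTGGGCG in 0.68%, 0.349% and 0.907%, the TEAD letters GGAATG in 16.3%, 14.4% and 13.1%, and the HIF letters ACGTG in 20.4%, 14.9% and 21.7%. None of these differences was tested, the full cyclic AMP element rests on 6 promoters, and the groups differ in GC and CpG content as given above. A match is a description of letters and not of a bound site. The 3 promoters below are shown because they carry the full element, in capitals, and come from genes that the text returns to or that stand for its nerve and germ cell groups.
Has1 (GRCm38.p6 chr17:17855139-17855438, minus strand): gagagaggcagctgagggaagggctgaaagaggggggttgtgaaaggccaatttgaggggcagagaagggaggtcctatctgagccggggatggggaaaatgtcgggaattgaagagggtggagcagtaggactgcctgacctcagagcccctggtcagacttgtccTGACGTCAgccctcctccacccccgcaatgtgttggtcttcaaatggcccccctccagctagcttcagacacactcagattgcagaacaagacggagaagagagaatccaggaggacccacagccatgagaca
Spag4 (GRCm38.p6 chr2:156064963-156065262, plus strand): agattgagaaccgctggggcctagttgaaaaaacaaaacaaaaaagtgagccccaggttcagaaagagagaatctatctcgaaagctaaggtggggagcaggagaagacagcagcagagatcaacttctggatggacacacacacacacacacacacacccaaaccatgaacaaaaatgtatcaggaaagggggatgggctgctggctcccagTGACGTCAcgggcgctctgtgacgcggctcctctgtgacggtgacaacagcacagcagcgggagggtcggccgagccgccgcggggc
Cartpt (GRCm38.p6 chr13:99900634-99900933, minus strand): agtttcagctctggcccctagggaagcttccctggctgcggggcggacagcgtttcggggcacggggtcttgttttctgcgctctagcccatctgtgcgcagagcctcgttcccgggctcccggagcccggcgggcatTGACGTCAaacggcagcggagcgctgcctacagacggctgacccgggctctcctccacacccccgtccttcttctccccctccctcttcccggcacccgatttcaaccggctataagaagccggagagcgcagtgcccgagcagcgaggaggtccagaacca
Has1 makes hyaluronan, Spag4 is a sperm antigen, and Cartpt encodes the precursor of a brain peptide.

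The 184 genes were 175 protein-coding genes, 8 long noncoding RNAs and 1 transcribed pseudogene, and 15 carried clone or model names. They lay on 20 chromosomes, with at most 19 on any 1. In the RefSeq order (assembly GRCm38.p6) 8 pairs were neighbours with at most 1 named gene between them, among them the testis proteases Prss43, Prss45 and Prss46 in a row and the F-box genes Fbxw16 and Fbxw15. Grouped by what the genes are known to do, 122 could be placed. The largest groups were genes of nerve and neuroendocrine cells (26), germ cells and placenta (24), liver, gut, pancreas and other secreting epithelia (15) and blood and immune cells (14). Smaller groups were transcription and cell fate (10), matrix and morphogens (9), signalling and cell division (9), muscle and brown fat (6), retina and inner ear (5) and motile cilia (4). These groups were drawn up after the genes were known and carry no test.

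Families defined by symbol gave a similar spread. Of 165 testis and germ cell genes undetected at day 0, 15 were among the 184 (9.09%), of 131 solute carriers and ABC transporters 12 (9.16%), and of 95 adhesion and matrix genes 8 (8.42%). Of 49 synaptic genes 5 were (10.2%), of 154 G protein-coupled receptors 6 (3.90%), and of 187 immune receptor and leukocyte surface genes 6 (3.21%). The share over all 4928 undetected genes outside the left-out families was 3.73%. Odorant and vomeronasal receptors gave 1 gene of 980 (0.102%), Olfr251. None of 45 interleukin and interferon genes and none of 7 p53 target and death genes was among the 184. Of 36 immediate early regulators on the array only 2 were undetected at day 0, and 1 of them, the MAP kinase phosphatase gene Dusp4, was among the 184.

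At day 1 the mean level of the 184 genes in TdTomato podocytes ran from -4.68 to 2.26, with a median of -3.02. Set against the detection level of the day 0 arrays, the lower bound of the fold over day 0 ran from 1.32 to 163, with a median of 4.19. It was 2 or more for 167 genes, 10 or more for 52 and 100 or more for 6. Nearest the threshold from inside were Ttll13 (-4.68), Olfr251 (-4.51) and Tmem145 (-4.43). The brightest genes just outside were Gys2 (2.98), Ptprn (2.85) and Aoc3 (0.92), each of which was detected on 1 of the 8 day 0 arrays. In all, 65 genes missed the rule on 1 day 1 array and 68 on 1 day 0 array.

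The array of MC541 gave the lowest day 1 TdTomato value for 154 of the 184 genes. The median level of the 184 was -3.82 on it, and -2.55, -2.66 and -2.61 on those of MC125, MC542 and MC831. Its EGFP partner had a median of -7.13, also the lowest of the 3 day 1 EGFP arrays.

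Elf5, an ETS transcription factor of trophoblast and mammary epithelium, had the highest probe signal. Its levels in TdTomato at day 1 were 3.39, 0.18, 2.33 and 3.16, and no day 0 array exceeded -5.85, a rise of at least 163-fold. Ltb, which encodes lymphotoxin beta, a membrane cytokine of lymphocytes, had 2.48, 0.35, 3.24 and 2.46, at least 142-fold over day 0. Slc6a17, a synaptic vesicle transporter of neutral amino acids, had 2.73, 1.16, 1.91 and 2.67, at least 147-fold. In each of the 3, the array of MC541 was the lowest and still lay above every day 0 array.

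Among the next genes by probe signal, the bound was 115-fold for Pcdh10 and 111-fold for Cdh22, both cadherin-family adhesion genes of the brain, and 111-fold for Gng4, a G protein gamma subunit. It was 86.2-fold for Prl2a1, a prolactin-family hormone of the placenta, and 66.5-fold for Neurl3, a ubiquitin ligase. Vgf, a secreted neuropeptide precursor, had 51.9-fold and Has1 50.3-fold.

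**Figure D2:**
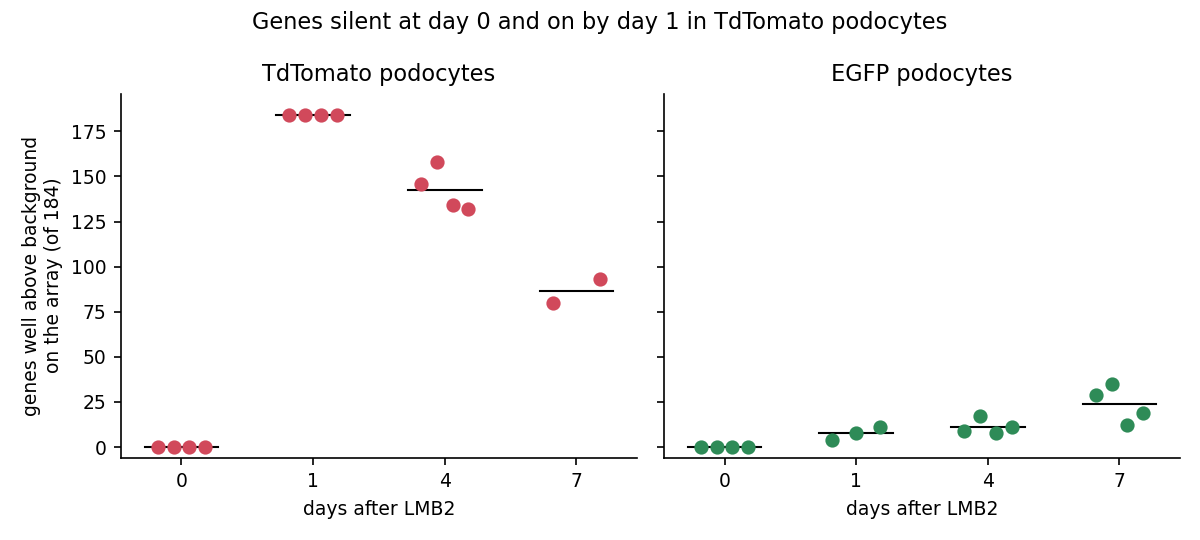
Number of the 184 genes well above background on each array (points) at days 0, 1, 4 and 7, in TdTomato (left) and EGFP podocytes (right), with a line at the group mean. Day 0 and the day 1 TdTomato arrays are fixed by the rule. Counts ran from 132 to 158 on the day 4 TdTomato arrays and were 80 and 93 at day 7, and no EGFP array exceeded 35. The same counts by array were not made over all genes undetected at day 0.

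The genes did not stay on as a block. At day 4, 126 of the 184 were detected on all 4 TdTomato arrays, 34 on some and 24 on none. Of all 5100 genes undetected at day 0, 10% were detected on all 4. At day 7, 71 were detected on both TdTomato arrays and 82 on neither, against 5.37% of the 5100 on both. The array of MC221 had 80 of the 184 and that of MC791 had 93.

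Within the 126, the day 4 mean exceeded the day 1 mean by 1 or more on the log2 scale for 71 genes, was within 1 for 40, and was lower by 1 or more for 15. Over all 184 genes the difference ran from -6.10 to 7.76 with a median of 0.16, and 93 were higher and 91 lower. As the day 1 arrays chose the genes, this difference is a description. Genes that stood higher at day 4 were also the ones most often still on at day 7: 52 of the 71 were detected on both day 7 arrays, against 13 of the 40, 4 of the 15, 1 of the 34 and 1 of the 24. These classes were set by detection and level at day 4, and no comparison with other genes of like day 4 level was made. The counts therefore do not separate a rise after day 1 from a high level at day 4.

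**Figure D3:**
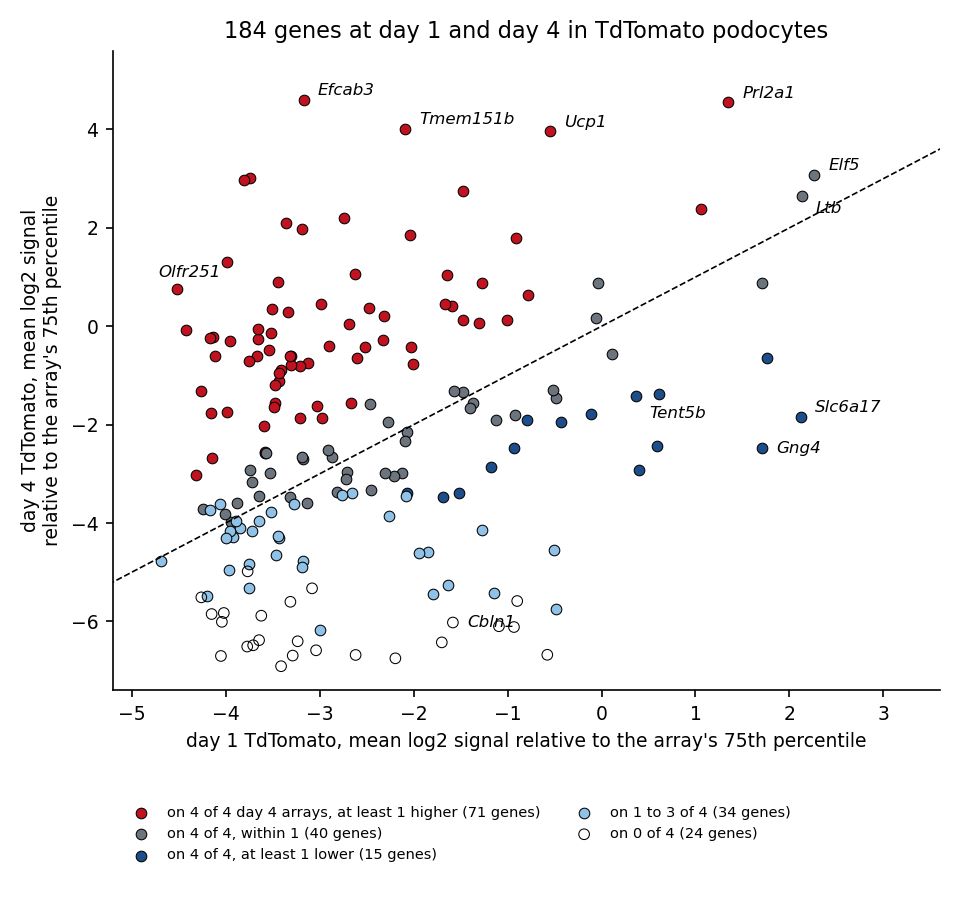
Mean level of each of the 184 genes in TdTomato podocytes at day 4 (vertical axis, n = 4) and at day 1 (horizontal axis, n = 4), in log2 units above or below the array's 75th percentile. Colours give detection and difference at day 4, open circles are the 24 genes on none of the day 4 arrays, and the dashed line is equality. Efcab3, Olfr251 and Prl2a1 lie above the line, Elf5 and Ltb close to it, and Slc6a17, Gng4 and Cbln1 far below it.

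Efcab3 and Olfr251 were among the genes that stood higher at day 4. Efcab3, an EF-hand protein, had -3.43, -4.23, -2.18 and -2.83 at day 1, 4.01, 4.66, 5.43 and 4.27 at day 4, and 0.98 and 1.13 at day 7. Its 3 sets of TdTomato values did not overlap. Olfr251, the single odorant receptor, had a mean of -4.51 ± 0.53 (SD, n = 4) at day 1, 0.76 ± 0.53 (n = 4) at day 4 and -2.42 ± 0.34 (n = 2) at day 7.

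Ucp1, the uncoupling protein of brown fat, had levels of 0.75, -2.24, -0.57 and -0.14 at day 1, 4.43, 3.87, 4.24 and 3.29 at day 4, and 1.47 and 1.19 at day 7. Prl2a1 had 1.90, 0.53, 1.12 and 1.84, then 5.25, 4.60, 4.43 and 3.90, then 1.74 and 2.52. Both stood highest at day 4 on every array. Elf5 and Ltb kept within 1 of their day 1 means at day 4 and were lower at day 7, where Elf5 had -1.33 and -0.55 and Ltb had -0.89 and -0.10.

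The genes that sank included several of nerve cells. Slc6a17 had -2.16, -1.07, -2.01 and -2.11 at day 4 and -3.56 and -4.46 at day 7, all below its day 1 values. Gng4 had 2.26, 0.70, 1.29 and 2.59 at day 1, -2.41, -1.93, -2.90 and -2.65 at day 4, and was undetected at day 7. Cbln1, a secreted synapse organiser of the cerebellum, was undetected on every TdTomato array of days 4 and 7, against -0.30, -2.86, -1.998 and -1.17 at day 1. F2rl2, a protease-activated receptor, and Spag4 were likewise undetected on all 4 day 4 arrays.

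By group, 9 of the 26 nerve and neuroendocrine genes had a day 4 mean above their day 1 mean, and the median difference was -1.38. Among the exceptions was Olig3, a transcription factor of the developing brain, at 2.10 ± 0.17 (SD, n = 4) on day 4 against -3.36 ± 0.94 (n = 4) on day 1. Of the germ cell and placenta genes 14 of 24 were higher, with a median difference of 1.20. Mageb3, a cancer-testis gene, and Tex14, needed for intercellular bridges in spermatocytes, were among them, while Tex15 was off on all 4 arrays. Of the immune genes 11 of 14 were higher, with a median of 1.05, among them Slc11a1, a phagosome metal transporter, and the lysozyme Lyz1. Of the muscle and brown fat genes 4 of 6 were higher, with a median of 2.49, led by Myh3, the embryonic myosin heavy chain, at 1.30 ± 0.24 against -3.99 ± 0.45 (SD, n = 4 each).

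Of the 15 genes of secreting epithelia 8 were higher at day 4, with a median difference of 0.19. Prothrombin (F2) had 0.42 ± 0.46 at day 4 against -1.59 ± 0.79 at day 1, and Ambp, a plasma protein of the liver, had -0.05 ± 0.17 against -3.66 ± 1.09 (SD, n = 4 each). Sftpb, a lung surfactant protein, was off on all 4 day 4 arrays. Of the 9 matrix genes 2 were higher, with a median of -1.70, and Hpse, which cuts heparan sulfate, and Scube1 were off on all 4. Has1 had -2.87, -3.04, -1.49 and -2.33 at day 4, against 1.46, -0.83, 0.61 and 1.12 at day 1. These examples outside the largest differences were picked after their values were seen.

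Markers of other cells were set beside these levels. Of 19 myeloid markers, 7 were detected on all 4 day 4 TdTomato arrays and 3 (Cx3cr1, Retnlg and Clec4e) on none. On the 4 day 0 TdTomato arrays, 6 of these markers were detected on all and 8 on none. From day 0 to day 4 in TdTomato, C1qa went from -7.05, undetected, to -0.87, detected on all 4 arrays. S100a8 and S100a9 went from detection on 1 array to 3, and Adgre1 from 3 to 1. The log2 of the summed signal of the 19 markers in TdTomato was 5.65 to 6.06 at day 0, 6.53 to 8.10 at day 1 and 5.76 to 7.02 at day 4. Csf1r led the day 1 sum, with a mean of 3.36 at day 0 and 6.51 at day 1, whereas the median of the 19 markers was -5.46 at day 0, -5.34 at day 1 and -3.50 at day 4. Of 10 lymphocyte markers, 5 were detected on all 4 day 4 TdTomato arrays, against 3 on all 4 day 0 TdTomato arrays. Cd79b went from -6.86, undetected at day 0, to 0.32 on all 4 arrays at day 4. On no array were 4 of the 10 at day 0 and 3 at day 4. Of 8 erythrocyte and platelet markers, Itga2b, itself one of the 184, was the only one on all 4 arrays. Of 10 proximal tubule markers 7 were on all 4 arrays at day 4 and 6 at day 0, with a summed signal of 2.90 to 7.99 against 2.13 to 4.72. Their part in the levels of the 184 genes was not tested.

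The first tested comparison set TdTomato against EGFP podocytes of day 4, and asks whether the switched-on state stayed with the targeted population. At day 4, 145 of the 184 genes were higher in TdTomato (78.8%), 1 was lower and 38 did not pass, by limma with Benjamini-Hochberg adjustment at 0.05 over 15607 genes (n = 4 and 4). Of all genes tested 21% were higher and 38.6% lower. The median difference of the 184 was 3.69 on the log2 scale, against -0.33 for all genes. All 184 genes passed the filter on dim probes through the 4 day 1 arrays of the rule. For 118 of the 145 no EGFP array detected the gene, with lower bounds of 1.12-fold to 143-fold. The 1 lower gene was 4933406I18Rik, a call that was lost under normexp (a background correction that models signal and background together and compresses dim values), without the filter, with the mouse as a replicate block, and on leaving out 1 array at a time for 6 of the 8 arrays.

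Gstt4, a glutathione transferase, had 3.17, 2.86, 2.78 and 2.22 in TdTomato at day 4, against -5.62, -4.56, -5.83 and -6.19 in EGFP, where it was undetected. It was at least 143-fold higher (difference 8.31 ± 0.46 SE, limma adjusted p = 9.7e-13). Prl2a1 differed by 8.28 ± 0.38 SE (adjusted p = 5.1e-14) and Elf5 by 8.26 ± 0.61 SE (adjusted p = 1.1e-10). Elf5 was detected on 1 of the 4 EGFP arrays and Prl2a1 on 3, so the size of the Elf5 difference is uncertain. Tmem151b, a transmembrane protein of the brain, had 4.43, 3.77, 4.32 and 3.53 in TdTomato, against -3.88, -3.46, -4.07 and -5.38 in EGFP, where 1 of 4 arrays detected it (difference 8.21 ± 0.53 SE, adjusted p = 1.0e-11). In all 4 genes every TdTomato array lay above every EGFP array.

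Within the 4 mice of day 4, whose arrays of both populations shared a slide, TdTomato lay above EGFP in every mouse for 150 of the 184 genes. The median difference was 3.46 in MC151, 4.42 in MC692, 3.66 in MC822 and 3.29 in MC823. At day 1, where the TdTomato arrays were part of the rule, the same held for 182 genes in 3 mice. These counts were not made over all genes tested, so they have no background share beside them. Podocyte markers summed to 10.5 to 10.9 in TdTomato and 11.3 to 11.8 in EGFP at day 4, and myeloid markers to 5.76 to 7.02 and 5.26 to 5.94. Their part in these differences was not tested. With normexp background correction the 145 calls became 101 and the median 0.73, against -0.23 over all genes in that setting.

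At day 7, 68 of the 184 genes were higher in TdTomato than in EGFP (37.0%), 1 was lower and 115 did not pass (limma, n = 2 and 4). Of all genes tested 6.2% were higher and 0.801% lower. The median difference was 1.04, against -0.18 over all genes. All 68 had also been higher at day 4. Without both arrays of MC221 60 were higher and 0 lower, and with normexp 39 were higher.

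Prl2a1 had 1.74 and 2.52 in TdTomato at day 7, against -6.27, -5.95, -4.98 and -6.44 in EGFP, where it was undetected. It was at least 112-fold higher (difference 8.04 ± 0.47 SE, limma adjusted p = 8.4e-11). Mgarp, a mitochondrial protein of steroid-making cells, had 1.77 and 1.89, against -5.37, -4.20, -4.51 and -5.21, where 1 of 4 arrays detected it (difference 6.65 ± 0.61 SE, adjusted p = 6.9e-08). Tmem151b was at least 33.8-fold higher (6.24 ± 0.64 SE, adjusted p = 4.1e-07), and Lpar2, a receptor for lysophosphatidic acid, at least 20.5-fold (5.67 ± 0.71 SE, adjusted p = 5.9e-06). In each of the 4, both TdTomato arrays lay above all 4 EGFP arrays.

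In mouse MC221 the median TdTomato minus EGFP difference was 0.51, and in MC791 it was 1.77. TdTomato lay above EGFP in both mice for 120 of the 184 genes, and this count was not made over all genes tested.

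**Figure D4:**
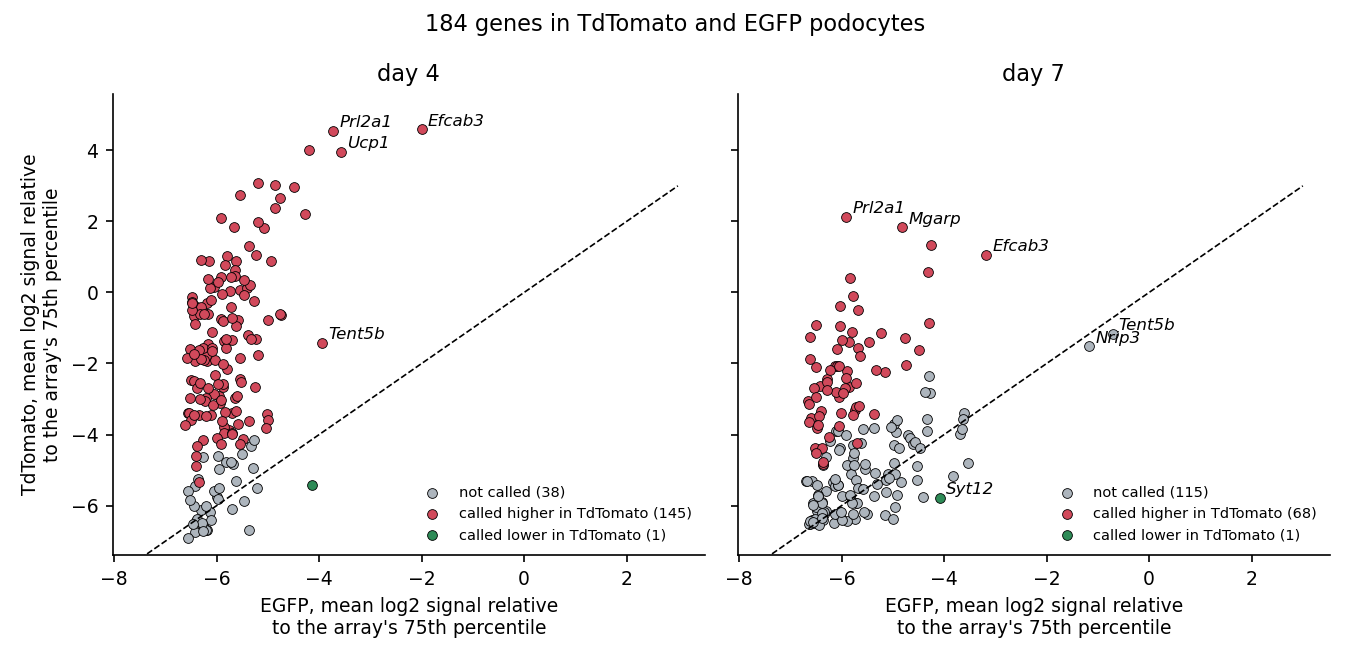
Mean level of each of the 184 genes in TdTomato podocytes (vertical axis) and in EGFP podocytes (horizontal axis) at day 4 (left, n = 4 and 4) and day 7 (right, n = 2 and 4), in log2 units above or below the array's 75th percentile. Red points were called higher in TdTomato by limma (145 and 68), green points lower (1 and 1), and the dashed line is equality. At day 4 nearly all points stand above the line over a narrow range of dim EGFP values, and at day 7 Nrip3 and Tent5b lie on it at clearly higher EGFP levels.

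TdTomato podocytes of day 7 were next set against those of day 4, which came from different mice. A loss of cells with high levels and a fall within cells cannot be told apart here. Of the 184 genes 103 were lower at day 7 (56.0%), 1 was higher and 80 did not pass (limma, n = 2 and 4). Of all genes tested 13.1% were lower and 11.5% higher. The median difference was -2.14, against 0.18 over all genes. The gene that rose was 1810065E05Rik. All 103 were lower within slide 1 (MC791 against MC692) and within slide 4 (MC221 against MC151), with medians over the 184 of -2.46 and -2.08. As the 103 were called from these same arrays, their agreement within slides is no separate evidence. Without both arrays of MC221 85 were lower, and with normexp 59.

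Chrm2, a muscarinic acetylcholine receptor, had -6.31 and -6.66 at day 7, where it was undetected, against -2.20, -0.29, -1.18 and -1.54 at day 4, at least 11.1-fold lower (difference -5.18 ± 0.94 SE, limma adjusted p = 2.9e-04). Chodl, a C-type lectin, was at least 9.99-fold lower (-4.71 ± 0.38 SE, adjusted p = 3.5e-08). Rbfox3, the neuronal splicing factor also known as NeuN, fell by 4.70 on the log2 scale (SE 0.70, adjusted p = 3.7e-05) and Olig3 by 4.63 (SE 0.43, adjusted p = 1.9e-07). Rbfox3 was still detected on the array of MC791 and Olig3 on both day 7 arrays. For Rbfox3, its 2 other probes were detected on 2 and 0 of the day 1 TdTomato arrays.

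In some genes the values of day 7 and day 4 overlapped. Tent5b, a poly(A) polymerase, had -1.40 and -0.92 at day 7, against -1.29, -1.84, -0.85 and -1.65 at day 4. Gbp4, an interferon-inducible GTPase, had -2.31 and -2.04 against -2.03, -1.36, -2.52 and -1.52, and Liph, a lipase that makes lysophosphatidic acid, -2.94 and -3.52 against -2.65, -1.32, -2.38 and -2.97. The mean of Tent5b did not fall, whereas in Gbp4 and Liph most day 4 values lay above both day 7 values. Overlap in these 2 is therefore not the absence of a fall. All 3 were picked after their values were seen.

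EGFP podocytes showed few of these genes at first. At day 1 no gene of the 184 was detected on all 3 EGFP arrays and 19 on at least 1, against 0.0196% of the 5100 on all 3. At day 4 it was 2 on all 4 and 33 on at least 1 (0.098% on all 4), and at day 7 it was 4 and 59 (0.373% on all 4). By array, 4, 8 and 11 genes were detected at day 1, 9, 17, 8 and 11 at day 4, and 29, 35, 12 and 19 at day 7. The counts by array and on at least 1 array were not made over the 5100 genes. They therefore have no background share beside them and are not read as a trait of these genes.

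In EGFP at day 4 against day 1, 4 of the 184 genes were higher and 0 lower (limma, n = 4 and 3), against 0.276% higher and 0.0192% lower of all genes. At day 1 no EGFP array detected 165 of the 184 genes. These had little room to be called lower, so the 0 is no result about them. An unadjusted p under 0.05 was reached by 24 of the 184 (13%) and by 6.75% of all genes. The 4 were Efcab3, Prl2a1, Ucp1 and Nrip3. Efcab3 had -2.80, -2.12, -1.29 and -1.78 at day 4, against -4.87, -4.77 and -6.85 at day 1, where 1 of 3 arrays detected it (difference 3.50 ± 0.59 SE, adjusted p = 0.0073). Prl2a1 had -3.47, -3.18, -3.88 and -4.40, against -6.55, -7.36 and -6.98, at least 2.52-fold higher (3.23 ± 0.42 SE, adjusted p = 1.6e-04). Ucp1 had -3.48, -3.17, -3.78 and -3.90, against -5.29, -7.31 and -6.80, at least 2.80-fold higher (2.88 ± 0.54 SE, adjusted p = 0.015). Nrip3, by name a partner of nuclear receptors, rose by 1.85 ± 0.35 SE (adjusted p = 0.015), but no array of either day detected it.

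Efcab3 and Ucp1 were the only genes of the 184 detected on all 4 arrays of both populations at day 4, and their EGFP level was 1.03% and 0.537% of the TdTomato level on the linear scale. Over the 4 called genes, undetected EGFP values included, it was 0.32% to 5.35%. By day 4 TdTomato level these genes ranked from 1 to 58 of the 184. The 4 calls became 2 without the day 1 EGFP array of MC541 and 1 without that of MC542, and with normexp there were 0. All 4 genes were higher at day 4 within each of the 3 slides that held both days, which is no separate evidence, as the same arrays gave the calls.

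At day 7 against day 1, 20 of the 184 genes were higher in EGFP (10.9%) and 0 lower (limma, n = 4 and 3), against 5.16% and 2.02% of all genes. Here too, genes undetected at day 1 had little room to be called lower, so the 0 is no result about them. An unadjusted p under 0.05 was reached by 40 (21.7%), against 18.6% of all genes. At day 7 against day 4, 11 were higher (5.98%) and 1 lower (n = 4 and 4), against 2.97% and 1.72%, and with quantile scaling 12 and 4. Of the 20, 3 were detected on all 4 day 7 EGFP arrays and 17 on at least 1. The 20 became 13 without the day 1 array of MC541, the day 1 array of MC542 or the day 7 array of MC943, 16 without both arrays of MC221, and 2 with normexp. All 20 were higher at day 7 within each of the 3 slides that held both days, which is no separate evidence, as the same arrays gave the calls.

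Nrip3 had -1.65, -1.24, -1.16 and -0.62 in EGFP at day 7 and was detected on all 4 arrays, against -6.48, -7.29 and -6.74 at day 1, at least 14.9-fold higher (difference 5.67 ± 0.35 SE, limma adjusted p = 9.7e-11). Against day 4, where it had -5.08, -5.04, -4.49 and -5.36, it was at least 9.12-fold higher (3.82 ± 0.33 SE, adjusted p = 8.4e-08). All 4 day 7 arrays stood far above all earlier EGFP arrays. Tent5b had -2.34, -1.03, 0.77 and -0.26 at day 7, against -4.39, -5.04 and -5.04 at day 1, at least 17.3-fold higher (4.11 ± 0.56 SE, adjusted p = 1.7e-05). Against -3.16, -4.64, -3.25 and -4.72 at day 4, where 2 of 4 arrays detected it, it was higher (difference 3.23 ± 0.52 SE, adjusted p = 2.5e-04).

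Loxl4, a lysyl oxidase that crosslinks collagen and elastin, had -4.17, -3.62, -4.08 and -2.86 in EGFP at day 7 and was detected on 2 arrays, at least 2.61-fold above day 1 (3.31 ± 0.41 SE, limma adjusted p = 4.7e-06) and at least 1.74-fold above day 4 (2.77 ± 0.38 SE, adjusted p = 3.8e-05). Fyb2, an adaptor of immune cells, had -3.27, -3.65, -3.74 and -3.45 and was detected on 3 arrays, at least 2.91-fold above day 1 (2.93 ± 0.43 SE, adjusted p = 6.2e-05) and at least 1.94-fold above day 4 (2.46 ± 0.40 SE, adjusted p = 3.1e-04). A second Fyb2 probe was detected on all 4 day 1 TdTomato arrays too. The other genes that rose over day 1 included Wnt10a, a Wnt ligand, Cd70, a ligand of the tumour necrosis factor family, Syt12, a synaptotagmin, and Sgms2, a sphingomyelin synthase. Prl2a1 went the other way and was at least 1.92-fold lower at day 7 than at day 4 in EGFP (-2.18 ± 0.38 SE, adjusted p = 7.1e-04), undetected on every day 7 array.

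**Figure D5:**
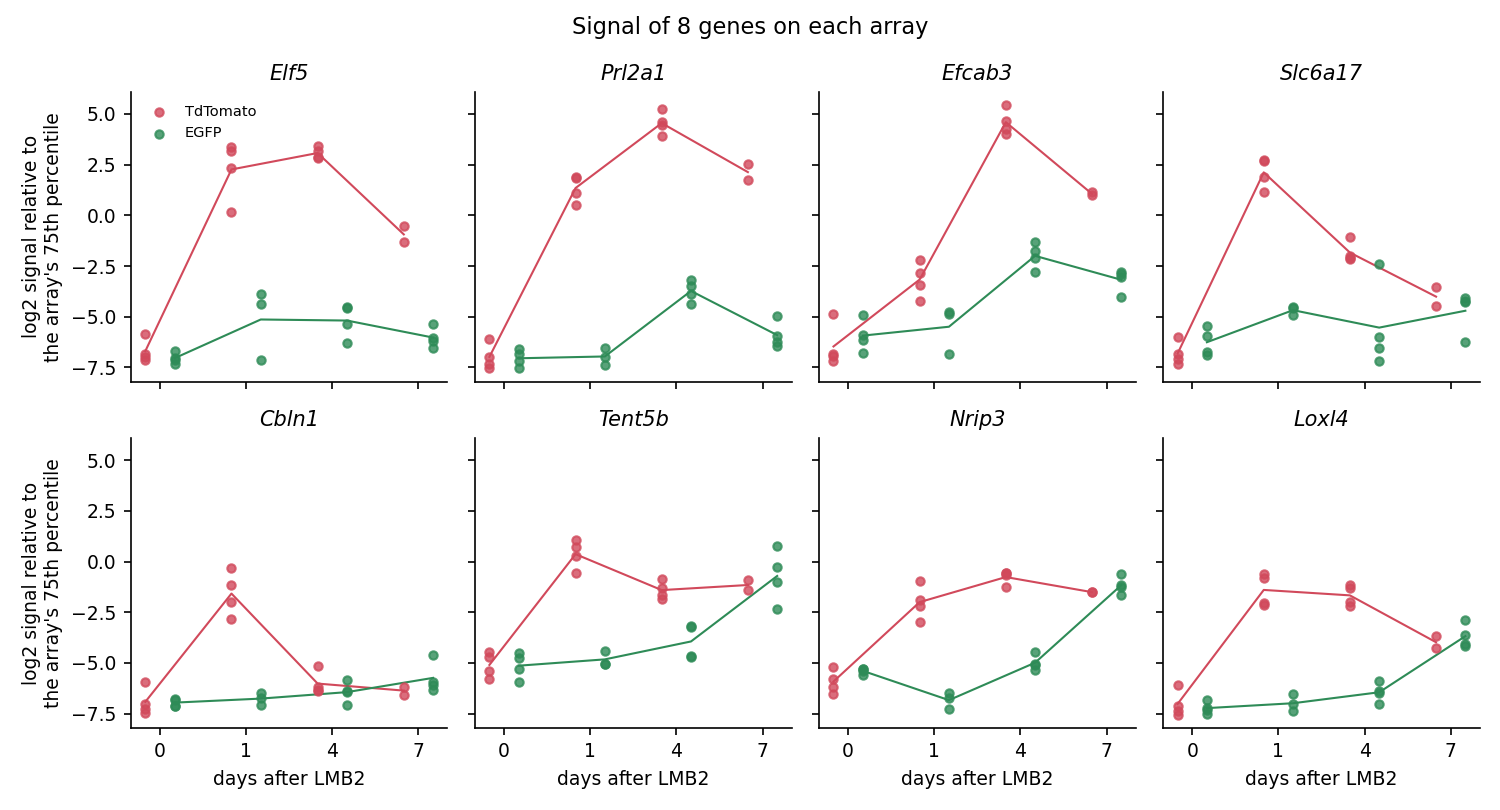
Level of 8 genes on every array (points) at days 0, 1, 4 and 7 in TdTomato (red, left of each pair) and EGFP podocytes (green), in log2 units above or below the array's 75th percentile, with lines through group means (n = 4, 4, 4, 2 and 4, 3, 4, 4). Elf5, Prl2a1 and Efcab3 stay far higher in TdTomato, Slc6a17 and Cbln1 fade in it, and Tent5b, Nrip3 and Loxl4 have overlapping TdTomato and EGFP values at day 7.

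At day 7, 3 of the 184 genes were detected on every array of both populations. The EGFP level was 136% of the TdTomato level for Tent5b, 127% for Nrip3 and 5.30% for Efcab3. Syt12 had -6.14 and -5.40 in TdTomato, where it was undetected, against -4.43, -4.58, -3.58 and -3.73 in EGFP, at least 1.61-fold lower (difference -1.69 ± 0.41 SE, limma adjusted p = 0.01). The call of Syt12 was lost when the mouse was a replicate block (-1.27), when only these groups were fitted, without the TdTomato array of MC221 (-1.32) and without both MC221 arrays (-1.44). With normexp the difference turned to 0.12. Of the 20, 9 were lower at day 7 than at day 4 in TdTomato.

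The change over days 4 to 7 was then compared between the populations by an interaction, the TdTomato change minus the EGFP change. For 79 of the 184 genes (42.9%) the TdTomato change was lower and for 0 it was higher (limma, n = 2, 4, 4 and 4), against 7.93% and 4.73% of all genes. An unadjusted p under 0.05 in either direction was reached by 110 (59.8%), against 29.1% of all genes. The median was -2.23, against 0.24 over all genes. No EGFP array detected 151 of the 184 genes at day 4, and none detected 125 at day 7. Where a gene was undetected at both days, its EGFP change lies among undetected values. The interaction then largely repeats the fall in TdTomato and is no separate evidence. Without both arrays of MC221 47 passed, with normexp 48, and with the mouse as a replicate block 97.

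Loxl4 had the largest fitted interaction, -5.08 ± 0.60 SE (limma adjusted p = 9.8e-06). Its TdTomato levels were -4.27 and -3.70 at day 7 against -2.01, -1.32, -1.14 and -2.21 at day 4, while in EGFP it rose as given above. Nrip3, whose rise in EGFP is also given above, had -4.57 ± 0.51 SE (limma adjusted p = 7.1e-06). It fell less in TdTomato than Loxl4, with -1.50 and -1.53 at day 7 against -0.59, -0.59, -0.65 and -1.24 at day 4. No day 4 EGFP array detected Loxl4 or Nrip3, so the sizes of both interactions are uncertain. Has1 had -5.32 and -5.03 in TdTomato at day 7, undetected, and in EGFP it had -3.13, -4.79, -3.71 and -3.64, detected on all 4 arrays (interaction -4.48 ± 0.97 SE, adjusted p = 0.0037). Fbxw15, an F-box gene of the oocyte, had -3.53 and -4.35 in TdTomato at day 7 against 0.31, 0.94, -0.30 and -0.68 at day 4 (-4.61 ± 0.72 SE, adjusted p = 1.9e-04), and no EGFP array of either day detected it. The interaction of Loxl4 and of Has1 did not pass with normexp (-0.97 and -0.44).

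Mesangial and smooth muscle markers stood beside the day 7 values. The log2 of their summed signal was 4.59 to 5.39 in TdTomato and 4.74 to 5.50 in EGFP at day 0, 5.36 to 6.72 in TdTomato and 5.90 to 7.53 in EGFP at day 4, and 9.53 to 9.87 in TdTomato and 9.28 to 9.88 in EGFP at day 7. Tagln carried the sum at day 7, with means of 9.68 in TdTomato and 9.43 in EGFP. The median of the 10 markers was -2.08, -1.17 and -0.82 in TdTomato at days 0, 4 and 7, and -2.04, -1.77 and -2.44 in EGFP. Of the 10 markers 9 were detected on both day 7 TdTomato arrays and 7 on all 4 day 7 EGFP arrays. Myeloid markers summed to 4.83 to 5.59 in EGFP at day 7, against 5.26 to 5.94 at day 4. The median of 10 glomerular endothelial markers was 0.46, 1.33 and 2.85 in TdTomato at days 0, 4 and 7. In EGFP it was -0.22, -0.86 and -0.20. The log2 of their summed signal was 6.95 to 7.74 in TdTomato and 8.24 to 8.53 in EGFP at day 4. At day 7 it was 7.93 to 8.26 and 7.94 to 8.01. The part of these marker sets in the levels of the 184 genes at days 4 and 7, or in their differences between TdTomato and EGFP, was not tested.

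Where a gene had more than 1 probe, the others were weaker evidence. There were 41 further probes for 33 of the 184 genes. Of these 11 met the same rule, 16 were detected on no day 1 TdTomato array, and 6 were detected on at least 1 day 0 array. The probes of a gene can lie in different exons or transcripts, and the levels of different probes were not compared. Among the genes above, second probes of Loxl4, Fyb2 and Chodl also met the rule. A second Pcdh10 probe was detected on all 4 day 1 TdTomato arrays and 1 day 0 array. Second probes of Hpse, Tex15 and Ttll13 were detected on no day 1 TdTomato array. Those of Lpar2 and Sftpb were detected on 1, that of Tmem145 on 2 and that of Myh3 on 3. The Tmem145 probe was also detected on 1 day 0 array.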

How the data were processed

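Sorted podocytes were measured on 29 one-colour Agilent arrays of 62976 spots. The deposited intensity values are the processed signals of Agilent Feature Extraction 11.5.1.1, already corrected for background, per the file headers. The series matrix holds log2 values deposited by the authors, with scale and centring not given in the sources used here, and was used only as an alternative. From the scanner files, log2 of the processed signal minus the 75th percentile of its array was taken, spots marked as outliers were set aside, and spots of a probe were averaged. A probe counted as detected where at least 0.5 of its spots were well above background. Of 55681 probes 26582 carried a named gene, and the brightest probe stood for each of 20145 genes. Genes detected on at least 3 of 29 arrays were tested (15607, with 49 missing values left as missing).

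The 8 group means were fitted with limma 3.58.1 in R 4.3.3, with Benjamini-Hochberg adjustment at 0.05 over all 15607 genes. Tables were made in Python 3.11.15 (pandas 2.3.3 and numpy 2.4.6), figures with matplotlib 3.10.9. The fit was tested on simulated data. A lower bound ("at least") sets the brighter group against the lowest signal well above background on each array, or the dim probe's own signal where that is higher. Replicate arrays of a group correlated at 0.956 to 0.988.

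TdTomato and EGFP arrays of 1 mouse come from the same animal and are paired by the mouse number in the labels. The correlation of their deviations from the group means was 0.0415 (MC823) to 0.636 (MC122), and limma's consensus was 0.596. Both arrays of a mouse lay on the same of 4 slides.

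The alternatives were normexp correction, quantile scaling, no filter and a stricter filter, the mean over probes, the series matrix values, the mouse and the slide as blocks, a fit of only the groups compared, each array left out in turn and, added after seeing the data, both arrays of MC221 left out. The files hold no mean signal, so normexp ran on the median signal and median background with an offset of 50. The genes, gene lists and tests were chosen with earlier results of these data known. Genes named in the text are the 10 brightest at day 1, the 4 largest differences in each direction of each test, up to 3 of each family, the 3 genes on either side of the rule, and others said to have been picked after their values were seen. Some single genes are not reported here.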

Additional observations from a re-analysis of the deposited data

Results flagged for a closer look

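In 6 of 119 groups of 4 arrays, 1 array stood apart from the other 3 for a named gene, where chance alone gives about 5 percent of groups. At day 1 in TdTomato this was the array of MC541 for Myo15 (-2.06, others -0.70 to -0.43), Olig3 (-4.75, others -3.02 to -2.73) and Tmem151b (-3.995, others -1.74 to -1.30). MC541 was also the lowest day 1 TdTomato array for 154 of the 184 genes. At day 4 in TdTomato it was MC692 for Olig3 (2.35, others 1.99 to 2.04) and Slc6a17 (-1.07, others -2.16 to -2.01), and MC823 for Nrip3 (-1.24, others -0.65 to -0.59).

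The change between day 7 and day 4 differed between TdTomato and EGFP podocytes, by the interaction in limma, for 79 of the 184 genes, all lower in TdTomato. No EGFP array detected 151 of the 184 at day 4 or 125 at day 7, so this count largely repeats the fall in TdTomato. The largest were Loxl4 (-5.08), Fbxw15 (-4.61), Nrip3 (-4.57) and Has1 (-4.48).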

How the results depend on the processing

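Counts of called genes are given below for each comparison, against the values in the report. Of the recomputed counts 221 lay within 1.5 times the reported count and 49 did not. With normexp, TdTomato over EGFP gave 0 lower at day 4, and 39 higher and 0 lower at day 7. Day 7 over day 4 in TdTomato gave 4 higher and 59 lower, and the EGFP comparisons gave 0 higher (day 4 over 1), 2 higher (day 7 over 1) and 2 higher and 0 lower (day 7 over 4). The interaction gave 48 lower. Normexp also moved the median of all genes at day 4 to -0.23 from -0.33, and turned Syt12 at day 7 to 0.12. The series matrix values gave 2 lower for TdTomato over EGFP at day 7, 2 higher for day 7 over 4 in TdTomato, and 1 and 5 lower in EGFP for day 7 over 1 and over 4. Quantile scaling gave 2 lower for TdTomato over EGFP at day 7 and 4 lower for day 7 over 4 in EGFP. The mean over probes gave 2 lower for TdTomato over EGFP at day 7. No filter gave 0 lower at day 4. A fit of only the groups compared gave 0 lower for TdTomato over EGFP at day 7, and 1 and 11 higher in EGFP for day 4 and day 7 over day 1. The slide as a block gave 2 higher for day 7 over 4 in TdTomato and 4 lower in EGFP. Without both MC221 arrays there were 0 lower for TdTomato over EGFP at day 7, 1 and 4 lower in EGFP for day 7 over 1 and over 4, and 47 in the interaction. The cause of these shifts was not tested.

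With the mouse as a replicate block, day 4 TdTomato over EGFP gave 150 higher and 0 lower, day 7 over day 4 in TdTomato 2 higher and 102 lower, and the interaction 97 lower. The block ended the call of Syt12 (-1.27) and no other call among the 30 tests of named genes.

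Leaving out 1 array gave 142 to 148 higher and 0 to 1 lower for TdTomato over EGFP at day 4, and 51 to 74 higher and 0 to 1 lower at day 7. It gave 1 to 3 higher and 75 to 105 lower for day 7 over 4 in TdTomato (3 without the day 4 array of MC151), and 54 to 88 lower in the interaction. In EGFP it gave 1 to 5 higher for day 4 over 1, 13 to 21 higher for day 7 over 1, and 9 to 14 higher and 1 to 4 lower for day 7 over 4. The 4 lower came without the day 7 array of MC221, and 2 without the day 4 arrays of MC151 or MC823 or the day 7 array of MC824. Where 1 day 7 TdTomato array was left, it was assumed to vary like the other groups.

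Among named genes 24 calls in 12 tests were lost, 11 of them with normexp. Detection on at least 1 array in place of all gave 19, 33 and 59 genes in EGFP at days 1, 4 and 7, with no such count over all genes undetected at day 0. Dim probes are among the limits of these results, since the lower bounds of the fold over day 0 had a median of 4.19.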
